A study of Mus musculus with 16 samples.

Results

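The genes described here are the 4 HSP90 paralogs of the mouse (Trap1, Hsp90aa1, Hsp90ab1 and Hsp90b1) and 6 genes of mitochondrial protein folding and breakdown (Hspd1, Hspe1, Hspa9, Lonp1, Clpp and Yme1l1). They were taken by symbol from the GENCODE M21 annotation, and these 10 genes were followed among 54532 gene identifiers in 16 RNA-seq libraries of bone marrow-derived macrophages, cells grown from mouse marrow for 7 days with 20 ng/mL of the macrophage growth factor M-CSF. Cells labelled TRAP1 KO spent 24 h in 70% tumor-conditioned medium (TCM), taken from the mouse melanoma line YUMM1.7 (TRAP1 KO TCM, n = 4). Wild-type cells were kept with the same medium (WT TCM, n = 3) or without it (WT naive, n = 3). A second set held cells labelled JMJD3 cKO, a conditional knockout of the histone H3 lysine 27 demethylase encoded by Kdm6b (JMJD3 cKO TCM, n = 3), and wild-type cells of that line (JMJD3 WT TCM, n = 3), both with TCM. The TRAP1 allele, the exons removed from Kdm6b, the Cre driver and the age of the mice were not given in the sources used here. Nothing in the labels says that replicates are separate animals or cultures, so p-values cover only the spread between libraries, which may be technical.

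HSP90 proteins are ATP-driven chaperones that act late in the folding of client proteins. Hsp90aa1 and Hsp90ab1 encode the inducible and the constitutive cytosolic form, Hsp90b1 encodes GRP94 of the endoplasmic reticulum, which folds integrins and Toll-like receptors in macrophages, and Trap1 encodes the form of the mitochondrial matrix. In the same matrix, HSP70 (Hspa9) pulls in and folds imported chains, HSP60 (Hspd1) and its lid HSP10 (Hspe1) form a folding chamber, and the proteases LONP1 and CLPP degrade damaged proteins, while YME1L1 is a protease of the inner membrane facing the space between the membranes.

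Library totals were 17845920 to 20228057 counts in TRAP1 KO TCM, 15361604 to 19326128 in WT TCM, 20506820 to 22351578 in WT naive, 19511053 to 22426820 in JMJD3 cKO TCM and 15815651 to 17544225 in JMJD3 WT TCM. The 10 genes took 0.164% to 0.274% of the counts of a library. Apart from Trap1, the lowest count of any of them in any library was 209, for Clpp. The 7 macrophage markers Adgre1, Csf1r, Cd68, Lyz2, Itgam, Mertk and Fcgr1 were detected in every group, with summed levels of 24416 to 24546 CPM (counts per library scaled to the same total) in TRAP1 KO TCM, 25410 to 26092 in WT TCM, 15684 to 15751 in WT naive, 12328 to 12782 in JMJD3 cKO TCM and 15633 to 16091 in JMJD3 WT TCM. Lyz2 was the largest part of each sum, at means of 17317 CPM in TRAP1 KO TCM, 17937.5 in WT TCM and 7980 in WT naive. The 7 markers did not move together. In WT TCM 4 averaged higher and 3 lower than in WT naive, and in TRAP1 KO TCM 2 averaged higher and 5 lower than in WT TCM. Kdm6b, the gene targeted in the second set, was at 26.0, 24.4 and 26.1 CPM in JMJD3 cKO TCM, against 26.7, 25.1 and 23.3 CPM in JMJD3 WT TCM (log2 fold change 0.04, 95% interval -0.11 to 0.18, adjusted p = 0.748). Since the removed exons are unknown and these counts cover all exons, they do not check the label of that group.

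Trap1 lies on the minus strand of chromosome 16 (4039971 to 4077827, GRCm38, also called mm10), Hsp90aa1 on chromosome 12 (110690605 to 110702728), Hsp90ab1 on chromosome 17 (45567775 to 45573271) and Hsp90b1 on chromosome 10 (86690209 to 86705509). Lonp1 (56614297 to 56626887) and Clpp (56990305 to 56996188) also lie on chromosome 17 and Yme1l1 on chromosome 2 (23156369 to 23199260). Hspd1 (55077835 to 55088243, minus strand) and Hspe1 (55088132 to 55091307, plus strand) are divergent neighbours on chromosome 1. Transcript Hspd1-201 starts at 55088024 and Hspe1 at 55088132, with 107 bases between them, and a longer annotated Hspd1 transcript starts at 55088243 and covers that stretch. The annotated exons of both genes share 112 bases on opposite strands, and the counting is not stated to use strand, so reads from that overlap cannot be told apart.

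RefSeq windows (GRCm38.p6) from 250 bases before to 50 bases after a gene's start matched 7 of the 10 genes. Of these, 3 stretches are shown because Hspd1 and Hspe1 moved together across the groups, and because Trap1 and Hsp90b1 fell more than the other paralogs in TRAP1 KO TCM. Each runs 5′ to 3′ on the named strand and ends next to the gene: chr1:55088025-55088131 on the plus strand for Hspd1 and Hspe1, chr10:86705510-86705694 on the minus strand for Hsp90b1, and chr16:4077828-4078060 on the minus strand for Trap1. Capitals mark matches to a heat shock element of 3 units (TTC, GAA and TTC with 2 bases of any kind after each of the first pair), an ER stress element (CCAAT and CCACG with 9 bases of any kind between them) and a cAMP response element (TGACGTCA), searched on both strands.
Hspe1: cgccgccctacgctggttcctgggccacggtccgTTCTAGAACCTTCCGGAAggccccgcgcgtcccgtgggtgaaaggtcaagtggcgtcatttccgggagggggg
Hsp90b1: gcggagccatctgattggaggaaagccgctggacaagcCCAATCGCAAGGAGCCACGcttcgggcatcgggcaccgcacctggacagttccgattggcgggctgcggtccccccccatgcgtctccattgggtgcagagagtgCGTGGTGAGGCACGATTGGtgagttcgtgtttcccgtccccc
Trap1: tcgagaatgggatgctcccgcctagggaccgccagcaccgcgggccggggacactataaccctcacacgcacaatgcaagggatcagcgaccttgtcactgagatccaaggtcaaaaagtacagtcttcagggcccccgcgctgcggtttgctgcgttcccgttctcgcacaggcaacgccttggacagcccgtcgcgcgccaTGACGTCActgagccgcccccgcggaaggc

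The heat shock element matched at 2 overlapping places between Hspd1 and Hspe1 (chr1:55088059-55088076), and 198 of 32851 RefSeq windows of mouse genes (0.603%) held a match. The ER stress element matched at 2 places upstream of Hsp90b1 (chr10:86705638-86705656 and chr10:86705533-86705551), and 39 windows (0.119%) held a match. The cAMP response element upstream of Trap1 (chr16:4077850-4077857) was one that 588 windows (1.79%) held. The ATF4 element TGATGNAA was found in 1304 windows (3.97%) and in none of the windows of these genes, and those of Lonp1, Clpp and Yme1l1 matched none of the 4 motifs. A match is a description of letters and not a bound site.

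In WT TCM, the levels per kilobase of annotated exon spanned a wide range, and Hsp90ab1 stood at the top with 358 ± 4.20 CPM per kb (SD, n = 3). Hsp90b1 followed at 118 ± 1.96 CPM per kb, and Hsp90aa1 and Hspa9, at 62.1 ± 2.10 and 61.1 ± 0.766 CPM per kb, overlapped. Next came Hspd1 at 49.6 ± 0.620, Hspe1 at 44.8 ± 0.438, Trap1 at 26.3 ± 2.08 and Lonp1 at 15.6 ± 0.310 CPM per kb. Clpp, at 13.6 ± 0.973, and Yme1l1, at 12.6 ± 0.211 CPM per kb, closed the order and overlapped. All other neighbours in this order lay apart in all 3 libraries. That separation does not cover the choice of length. With the longest transcript as length, Hspe1 (68.6 CPM per kb) stood above Hspd1 (54.1), and Yme1l1 (21.4) above Clpp (16.9).

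**Figure D1:**
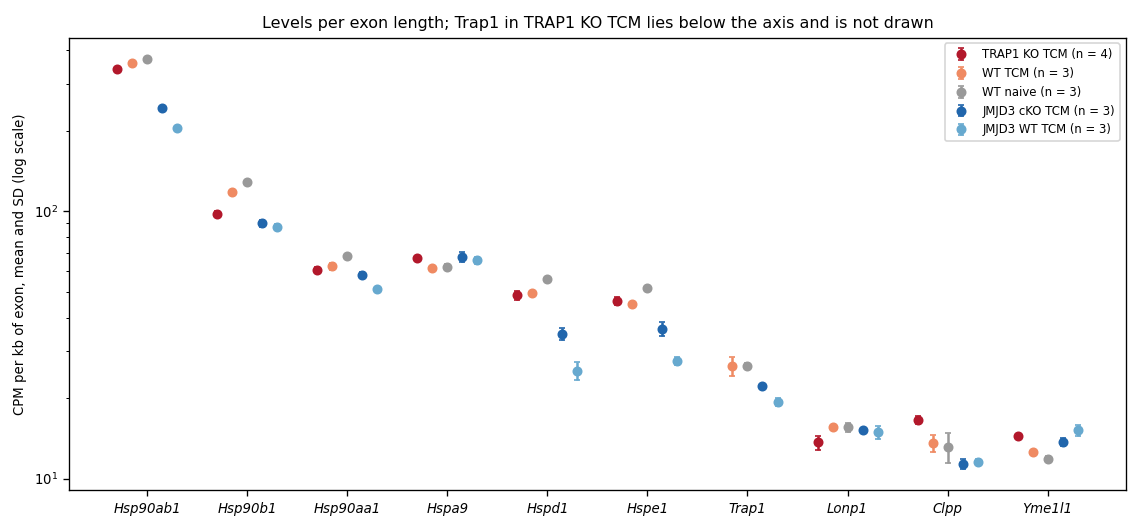
Mean level in CPM per kb of exon, with the SD over 3 or 4 libraries, on a log axis, for the 10 genes in the 5 groups. Hsp90ab1 is the highest gene in every group, and Trap1 in TRAP1 KO TCM, at 0.0147 CPM per kb, lies below the axis and is not drawn.

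Hsp90ab1 and Hsp90b1 led the order in all 5 groups. Hspa9 followed, above Hsp90aa1 with no overlap, in TRAP1 KO TCM (66.8 ± 0.403 for Hspa9 against 60.2 ± 1.41 CPM per kb for Hsp90aa1), in JMJD3 cKO TCM (67.6 ± 2.85 against 57.8 ± 1.49) and in JMJD3 WT TCM (65.5 ± 2.17 against 51.1 ± 0.306). In WT naive the order was the opposite, with Hsp90aa1 at 68.1 ± 1.09 and Hspa9 at 61.8 ± 1.41 CPM per kb. This order depends on the length used, since with the longest transcript Hspa9 stood above Hsp90aa1 in WT TCM (86.4 and 74.4 CPM per kb). WT naive was not run with that length, so the reversal holds only for the length of all annotated exons. Per kb of annotated exon Hsp90ab1 made up 68.2% ± 0.571 of the 4 HSP90 paralogs in TRAP1 KO TCM, 63.5% ± 0.704 in WT TCM, 62.4% ± 0.136 in WT naive, 58.8% ± 0.60 in JMJD3 cKO TCM and 56.5% ± 0.347 in JMJD3 WT TCM. Hsp90b1 took 19.7% ± 0.356 in TRAP1 KO TCM, 20.9% ± 0.302 in WT TCM, 21.7% ± 0.151 in WT naive, 21.8% ± 0.457 in JMJD3 cKO TCM and 24.1% ± 0.287 in JMJD3 WT TCM. Trap1 took 4.66% ± 0.383 in WT TCM, 4.45% ± 0.0602 in WT naive, 5.39% ± 0.103 in JMJD3 cKO TCM and 5.31% ± 0.127 in JMJD3 WT TCM, and in TRAP1 KO TCM, where its reads were nearly gone, the shares of the other 3 add up to almost all. The larger share of Hsp90ab1 in TRAP1 KO TCM was not a higher level. It stood at 339 ± 4.68 CPM per kb there and at 358 ± 4.20 in WT TCM.

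**Figure D2:**
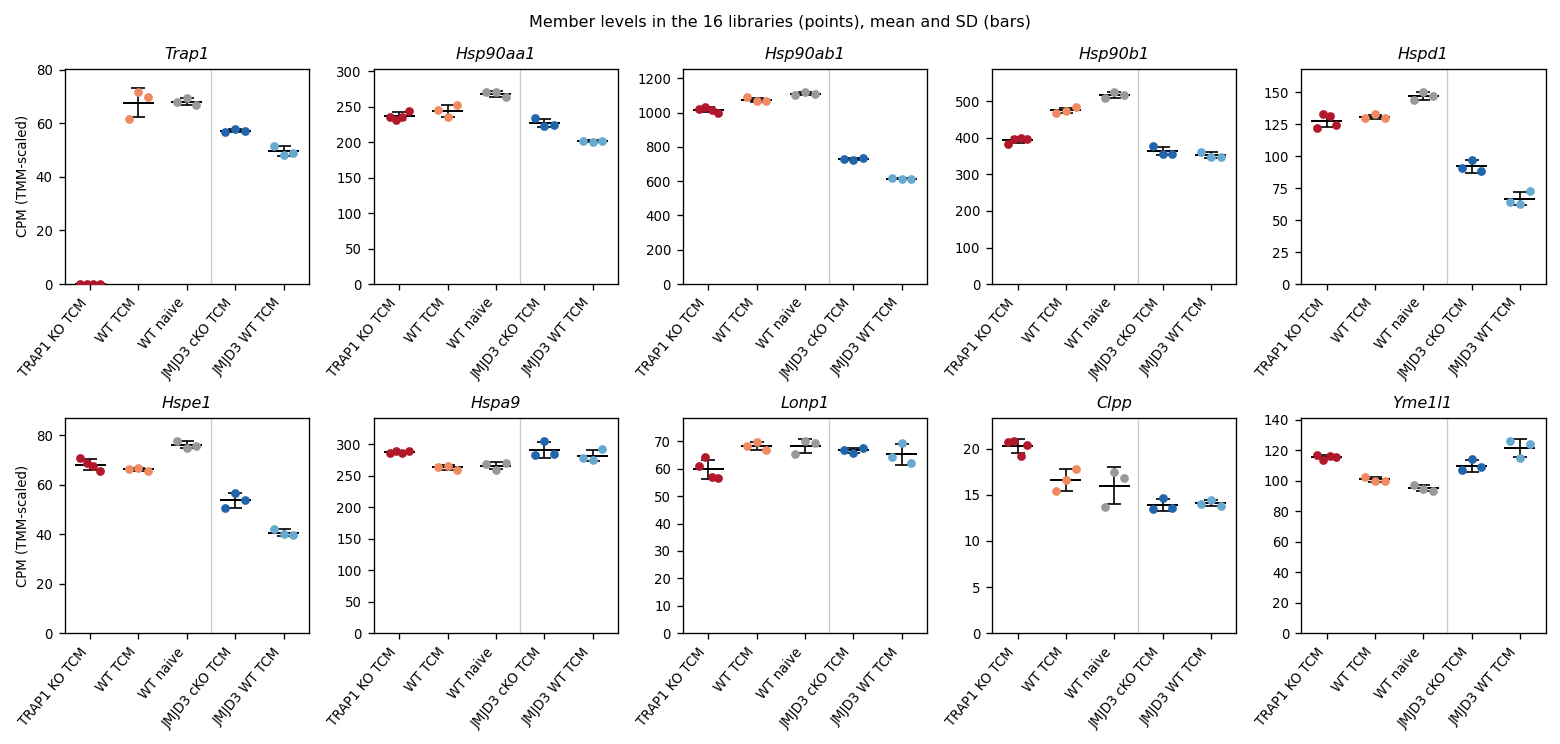
Level in TMM-scaled CPM (vertical axes from 0) of each gene in each of the 16 libraries (points), with the mean and SD of each group (bars). TRAP1 KO TCM lies apart from WT TCM for Trap1, Hsp90ab1, Hsp90b1, Hspa9, Lonp1, Clpp and Yme1l1, and JMJD3 cKO TCM lies apart from JMJD3 WT TCM for Trap1, Hsp90aa1, Hsp90ab1, Hspd1, Hspe1 and Yme1l1. How many of all genes tested lay apart in the same way was not counted.

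The comparison of TRAP1 KO TCM with WT TCM asks how the other paralogs and the mitochondrial folding and protease genes stood in macrophages without TRAP1. Trap1 itself was close to absent. Hsp90b1 was 0.833 times, Lonp1 0.879 times and Hsp90ab1 0.951 times its WT TCM level, and Clpp was 1.23 times, Yme1l1 1.149 times and Hspa9 1.10 times it. Hsp90aa1, Hspd1 and Hspe1 did not pass the test. In all, 3 of the 10 genes rose and 4 fell, where 21.2% of the 14073 genes tested rose and 21% fell (42.2% called in either direction), so a call was common among genes in general. The 4 that fell include Trap1, the targeted gene, whose fall follows from the design. The median absolute log2 fold change was 0.16 for the 10 genes and 0.16 for all genes tested.

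Trap1 had 1, 1, 1 and 0 counts in the 4 TRAP1 KO TCM libraries, or 0.0534, 0.0478, 0.0499 and 0 CPM, against 61.6, 71.7 and 69.8 CPM in WT TCM. The groups were far apart, and 3 counts in TRAP1 KO TCM against 3622 in WT TCM made WT TCM 1759 times higher, with an exact 95% interval of 601 to 8532 that covers counting error only. The fall passed edgeR's quasi-likelihood test with Benjamini-Hochberg adjustment (adjusted p = 1.46e-75). Dnase1, a neighbour on the opposite strand that shares 54 exon bases with Trap1 and encodes a secreted nuclease, had 0 counts in the TRAP1 KO TCM libraries, against 62 in those of WT TCM, and was at least 30.1-fold lower if 3 counts over the group are taken as the floor. The counting is not stated to use strand, so Dnase1 reads cannot be told apart from Trap1 reads over the shared bases. These counts therefore do not show that Dnase1 itself was lower.

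Hsp90b1 was at 383, 398, 400.5 and 396 CPM in TRAP1 KO TCM, against 469, 473 and 484 CPM in WT TCM. All 4 knockout libraries lay below all 3 wild-type ones (log2 fold change -0.26, SE 0.02, adjusted p = 7.05e-23). Hsp90ab1 was at 1021, 1034, 1016 and 1000.4 CPM in TRAP1 KO TCM, against 1089, 1066 and 1069 CPM in WT TCM. These groups also stood apart, though the change was small (log2 fold change -0.07, SE 0.01, adjusted p = 1.79e-05). Hsp90aa1 was at 236, 231, 236 and 244 CPM in TRAP1 KO TCM, against 245, 235 and 252 CPM in WT TCM. Its groups overlapped and it was not called (log2 fold change -0.04, 95% interval -0.09 to 0.01, adjusted p = 0.165), but it was called without WT TCM replicate 2 (-0.07, adjusted p = 0.0285). No paralog rose in cells without TRAP1.

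The chaperonin pair did not pass the test. Hspd1 was at 122, 133, 131 and 125 CPM in TRAP1 KO TCM, against 130.02, 133 and 130.04 CPM in WT TCM, and the groups overlapped (log2 fold change -0.03, 95% interval -0.09 to 0.03, adjusted p = 0.470). Hspe1 was at 70.5, 68.6, 67.6 and 65.3 CPM in TRAP1 KO TCM, against 66.4, 66.5 and 65.4 CPM in WT TCM, and also overlapped (0.05, 95% interval -0.03 to 0.12, adjusted p = 0.334). Both intervals lie within 0.12 of 0 on the log2 scale. Hspa9, the matrix HSP70 (chromosome 18, 34937414 to 34954357, minus strand), was at 287, 289, 286 and 289.7 CPM in TRAP1 KO TCM, against 264, 266 and 259.8 CPM in WT TCM. It was higher in every knockout library (log2 fold change 0.13, SE 0.02, adjusted p = 1.50e-07).

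Among the proteases, Lonp1 was the one that fell. It was at 60.9, 64.3, 57.0 and 56.7 CPM in TRAP1 KO TCM, against 68.2, 69.6 and 66.9 CPM in WT TCM, with no overlap (log2 fold change -0.19, SE 0.04, adjusted p = 5.48e-05). Clpp, the catalytic subunit that works with the unfoldase CLPX, was at 20.7, 20.8, 19.3 and 20.4 CPM in TRAP1 KO TCM, against 15.4, 16.6 and 17.8 CPM in WT TCM. The knockout libraries were all higher (log2 fold change 0.30, SE 0.08, adjusted p = 0.000712), and Clpp is the least abundant of the 10 genes in counts, so its interval is the widest after that of Trap1 (0.15 to 0.45). Yme1l1 was at 116.7, 114, 116 and 116 CPM in TRAP1 KO TCM, against 103, 100.1 and 99.8 CPM in WT TCM. It rose with no overlap (log2 fold change 0.20, SE 0.03, adjusted p = 3.17e-08).

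In these bulk samples fewer cells of a type and less RNA per cell cannot be told apart. Of 10 proliferation markers, all 10 averaged lower in TRAP1 KO TCM, with a summed level of 441 to 452 CPM, against 777 to 784 CPM in WT TCM. Of 6 fibroblast markers, 5 averaged higher, with a sum of 4.70 to 6.98 CPM in TRAP1 KO TCM, against 0.166 to 0.405 CPM in WT TCM, where Col3a1, Dcn and Pdgfra had 0 counts. Their part in the changes of the 10 genes was not tested.

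**Figure D3:**
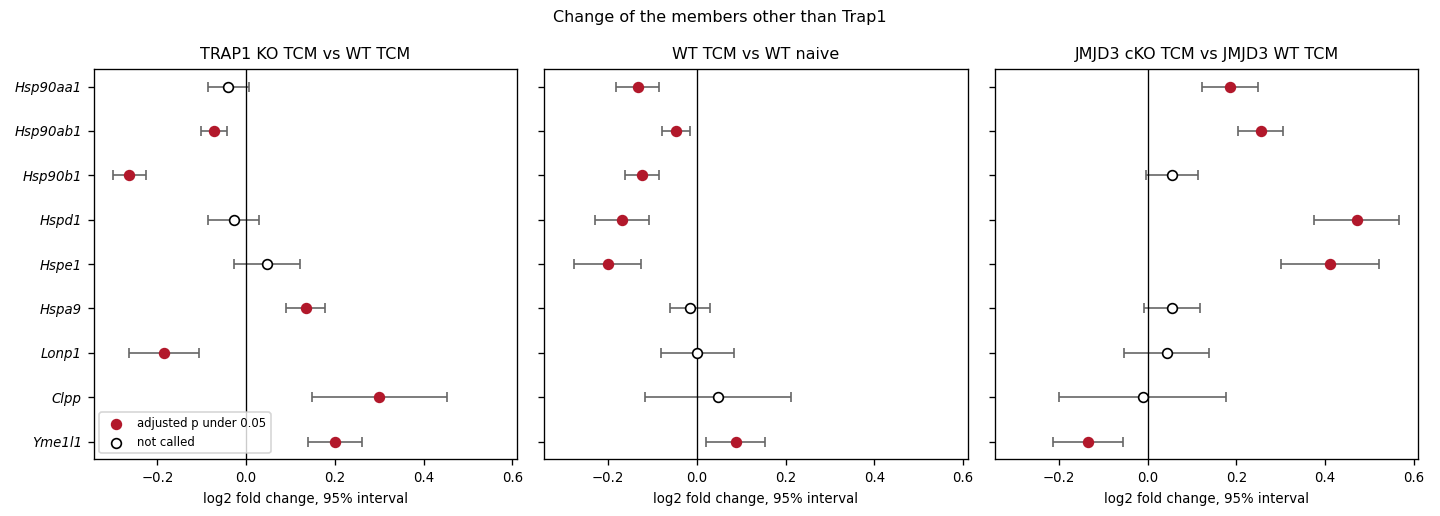
Log2 fold change with its 95% interval for the 9 genes other than Trap1 in TRAP1 KO TCM against WT TCM, WT TCM against WT naive and JMJD3 cKO TCM against JMJD3 WT TCM. Clpp is the highest in the first comparison (0.30) and Hspd1 in the third (0.47), while Hspe1 is the lowest in the second (-0.20).

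Of 17 other chaperones and stress-induced proteins of the endoplasmic reticulum, where Hsp90b1 acts, 13 fell and 1 rose in TRAP1 KO TCM, where 21% of all genes tested fell and 21.2% rose. Their median log2 fold change was -0.22, beside 0.01 over all genes tested. Calr, the lectin chaperone calreticulin, averaged 778 ± 20.7 CPM in TRAP1 KO TCM and 1048 ± 1.78 CPM in WT TCM (log2 fold change -0.42, adjusted p = 4.87e-37). Hspa5, the HSP70 known as BiP, averaged 806 ± 5.31 CPM in TRAP1 KO TCM and 991 ± 7.25 CPM in WT TCM (-0.29, adjusted p = 8.96e-32). Pdia3, a disulfide isomerase, averaged 454 ± 7.09 CPM in TRAP1 KO TCM and 567 ± 5.74 CPM in WT TCM (-0.31, adjusted p = 2.18e-29). The 1 that rose was Pdia4, another disulfide isomerase (0.11), named after its values were seen.

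Of 13 genes of mitochondrial stress signalling, 7 fell and 0 rose in TRAP1 KO TCM (median log2 fold change -0.11, beside 0.01 over all genes tested), against the same shares of 21% and 21.2% of all genes. Atf4, the transcription factor of the integrated stress response, averaged 140 ± 1.96 CPM in TRAP1 KO TCM and 177 ± 2.57 CPM in WT TCM (-0.34, adjusted p = 1.40e-20). Atf5, which drives the mitochondrial unfolded protein response in mammals, averaged 40.5 ± 3.15 CPM in TRAP1 KO TCM and 54.3 ± 1.48 CPM in WT TCM (-0.42, adjusted p = 1.12e-12). Ddit3, the pro-apoptotic factor CHOP, averaged 42.5 ± 2.27 CPM in TRAP1 KO TCM and 49.2 ± 1.37 CPM in WT TCM (-0.20, adjusted p = 9.06e-05).

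The other lists had fewer calls in any 1 direction, and their counts are read beside the 21.2% of all genes tested that rose and the 21% that fell. Of 15 HSP90 cochaperones 5 rose and 3 fell: Cdc37, which brings kinases to HSP90, averaged 170 ± 0.870 CPM in TRAP1 KO TCM and 193 ± 6.63 CPM in WT TCM (-0.18), while the cyclophilin Ppid (0.32) and the ubiquitin ligase Stub1 (0.21) rose. Of 15 further mitochondrial proteases and peptidases 3 rose and 3 fell, shares close to those of all genes. Parl, the rhomboid protease of the inner membrane, averaged 57.0 ± 2.05 CPM in TRAP1 KO TCM and 40.4 ± 1.18 CPM in WT TCM (0.50, adjusted p = 4.28e-17), while Spg7 (-0.17) and Htra2 (-0.13) fell. Of 13 further mitochondrial chaperones and cochaperones 3 rose and 0 fell, led by the prohibitin Phb (0.16), and of 20 import genes 3 rose and 0 fell, led by Tomm7 (0.23) and Tomm40 (0.16). Of 10 cytosolic heat shock proteins 2 rose and 2 fell, with the constitutive HSP70 Hspa8 at -0.12, its partner Dnaja1 at -0.15 and Hsph1 at 0.21, and of 8 TRiC subunits, the cytosolic chaperonin, 2 rose and 1 fell. Small counts of this kind turned on single libraries: without TRAP1 KO TCM replicate 1 only 1 mitochondrial chaperone rose, without TRAP1 KO TCM replicate 2 only 1 protease and as many as 6 import genes rose, and without WT TCM replicate 3 it was 5 import genes. For TRiC, 1 subunit rose without WT TCM replicate 1 or 2 or TRAP1 KO TCM replicate 4, and 2 fell without WT TCM replicate 1.

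**Figure D4:**
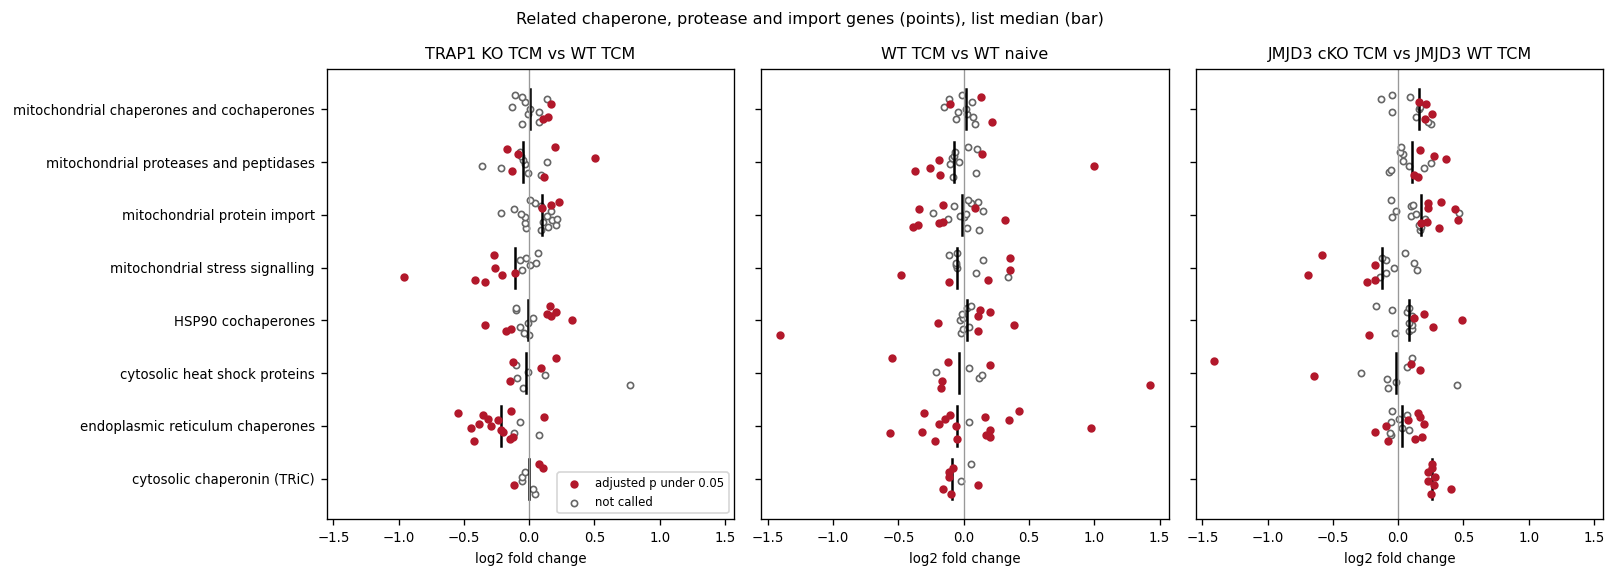
Log2 fold change of each tested gene (points) of 8 lists of related genes in the same 3 comparisons, with the median of each list (bar). The list of ER chaperones lies mostly below 0 in TRAP1 KO TCM against WT TCM (13 of 17 lower), and all 8 TRiC subunits lie above 0 in JMJD3 cKO TCM against JMJD3 WT TCM.

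The comparison of WT TCM with WT naive asks what melanoma medium did to these genes in cells with TRAP1. The cytosolic and ER paralogs and the chaperonin pair were lower with the medium, by at most 0.20 on the log2 scale, while Trap1, Hspa9, Lonp1 and Clpp did not pass the test. Among the 10 genes 1 rose and 5 fell, where 21.6% of the 14073 genes tested rose and 20.6% fell (42.2% called in either direction). The median absolute log2 fold change was 0.07 for the 10 genes and 0.18 for all genes tested.

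Trap1 was at 61.6, 71.7 and 69.8 CPM in WT TCM, against 68.1, 69.3 and 66.6 CPM in WT naive. The groups overlapped (log2 fold change -0.01, 95% interval -0.10 to 0.08, adjusted p = 0.908), so its transcript did not differ beyond the spread between replicates. Hsp90aa1 was at 245, 235 and 252 CPM in WT TCM, against 270.8, 270.0 and 263 CPM in WT naive, and lay lower in all 3 (-0.13, SE 0.02, adjusted p = 2.36e-06). Hsp90b1 was at 469, 473 and 484 CPM in WT TCM, against 510.5, 526 and 517 CPM in WT naive (-0.12, SE 0.02, adjusted p = 6.63e-08), again with no overlap. Hsp90ab1 was at 1089, 1066 and 1069 CPM in WT TCM, against 1102, 1121 and 1108 CPM in WT naive. Its fall was the smallest of the 5 (-0.05, SE 0.02, adjusted p = 0.00941) and was not called without WT TCM replicate 2 (-0.04, adjusted p = 0.0683).

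Hspd1 was at 130.02, 133 and 130.04 CPM in WT TCM, against 144, 150.4 and 147 CPM in WT naive, and Hspe1 at 66.4, 66.5 and 65.4 CPM in WT TCM, against 77.6, 74.8 and 75.7 CPM in WT naive. Both fell with no overlap, Hspd1 by 0.17 (SE 0.03, adjusted p = 1.81e-06) and Hspe1 by 0.20 (SE 0.04, adjusted p = 6.09e-06) on the log2 scale. Hspa9 was at 264, 266 and 259.8 CPM in WT TCM, against 269, 259.4 and 270.8 CPM in WT naive, and was not called (-0.02, 95% interval -0.06 to 0.03, adjusted p = 0.626). Lonp1 (68.2 ± 1.36 CPM in WT TCM and 68.2 ± 2.57 CPM in WT naive, adjusted p = 0.986) and Clpp (16.6 ± 1.19 CPM in WT TCM and 16.01 ± 2.04 CPM in WT naive, adjusted p = 0.691) overlapped as well. Yme1l1 was at 103, 100.1 and 99.8 CPM in WT TCM, against 97.2, 94.6 and 93.4 CPM in WT naive. It was the 1 gene that rose (0.09, SE 0.03, adjusted p = 0.0258), a call lost without WT naive replicate 2 (adjusted p = 0.0944), WT naive replicate 3 (adjusted p = 0.0764) or WT TCM replicate 1 (adjusted p = 0.112), and with no filter on low counts (adjusted p = 0.131).

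Markers of other cells moved with the medium. Of 8 neutrophil and precursor markers, all 8 averaged lower with it, with a sum of 4.10 to 5.47 CPM in WT TCM, where Mpo and Ly6g had 0 counts, against 50.0 to 53.7 CPM in WT naive. Of 6 fibroblast markers 5 averaged lower, with a sum of 0.166 to 0.405 CPM in WT TCM, against 13.2 to 14.5 CPM in WT naive. Of 10 proliferation markers 9 averaged higher with the medium, among them Mki67 at 78.3 CPM in WT TCM and 66.5 CPM in WT naive. Pcna, the 1 that averaged lower (320 CPM in WT TCM and 476 CPM in WT naive), took the sum to 777 to 784 CPM in WT TCM, against 814 to 847 CPM in WT naive. Their part in the falls above was not tested.

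Ahsa1, the activator of the HSP90 ATPase, fell the most of the listed genes named for this comparison. It averaged 206 ± 5.21 CPM in WT TCM and 547 ± 6.39 CPM in WT naive (-1.41 on the log2 scale, SE 0.02, adjusted p = 1.70e-71), although only 2 of 15 cochaperones fell and 5 rose. Nudc fell too (-0.20) and Cdc37 rose (0.11), and without WT TCM replicate 1 the count of cochaperones that rose was 3. Of the cytosolic heat shock proteins 2 rose and 4 fell among 10, with Hsph1, a nucleotide exchange factor of HSP70, at 40.3 ± 1.76 CPM in WT TCM and 58.8 ± 0.578 CPM in WT naive (-0.55, adjusted p = 3.26e-18), and with 1 that rose without WT naive replicate 1 or WT TCM replicate 1. The ER list was divided, with 7 of 17 higher and 9 lower. P4hb, a disulfide isomerase, averaged 575 ± 9.59 CPM in WT TCM and 451 ± 6.26 CPM in WT naive (0.35). Herpud1, of ER-associated degradation, averaged 50.5 ± 2.69 CPM in WT TCM and 25.7 ± 0.569 CPM in WT naive (0.98), and Xbp1, the stress transcription factor, 212 ± 2.09 CPM in WT TCM and 159 ± 2.70 CPM in WT naive (0.42). Ddit3 fell (-0.48) while the ER stress kinase Eif2ak3 rose (0.36), and of the 13 stress signalling genes 3 rose and 2 fell, or 5 and 2 without WT naive replicate 1. Of 8 TRiC subunits 5 fell, led by Cct3 (-0.16), and 1, Cct4, rose (0.11), with 2 that rose without WT naive replicate 2. Among 20 import genes 6 fell, with the smallest adjusted p for Timm13 (-0.19), and 2 rose, or 1 without WT TCM replicate 2 or 3. Of 13 further mitochondrial chaperones 2 rose and 1 fell, and of 15 proteases and peptidases 2 rose and 4 fell, and leaving out any 1 of the 6 libraries lowered at least 1 of these 4 counts by over 1.5 times. Over all genes tested, 21.6% rose and 20.6% fell.

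TRAP1 KO TCM was also set against WT naive, which shares its libraries with the comparisons above. Here 3 of the 10 genes rose and 7 fell, Trap1 as the targeted gene among them, where 27.7% of the 14073 genes tested rose and 28.8% fell (56.5% called in either direction). None of the 10 genes overlapped between these groups, but how many of all genes tested also lay apart was not counted. Hsp90b1 averaged 394 ± 7.85 CPM in TRAP1 KO TCM and 518 ± 7.88 CPM in WT naive (-0.39 on the log2 scale, SE 0.02, adjusted p = 9.10e-35). Hspd1 (-0.20) and Hspe1 (-0.15) were lower as well. Clpp (0.35), Yme1l1 (0.29) and Hspa9 (0.12) were the 3 that rose.

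The comparison of JMJD3 cKO TCM with JMJD3 WT TCM asks whether the same genes moved in another knockout under melanoma medium. The chaperonin pair was the most changed, with Hspd1 at 1.39 times and Hspe1 at 1.33 times its level in the wild-type cells of the line. Hsp90ab1, Trap1 and Hsp90aa1 were 1.19, 1.16 and 1.14 times it, and Yme1l1 was 0.911 times it. In all 5 of the 10 genes rose and 1 fell, where 17.3% of the 13471 genes tested rose and 17.8% fell (35.1% called in either direction). The median absolute log2 fold change was 0.16 for the 10 genes and 0.16 for all genes tested.

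Hspd1 was at 90.7, 97.3 and 88.1 CPM in JMJD3 cKO TCM, against 64.5, 63.0 and 72.8 CPM in JMJD3 WT TCM. The groups did not overlap (log2 fold change 0.47, SE 0.05, adjusted p = 5.99e-11), and 86.8% of all genes tested had a smaller change in either direction. Hspe1 was at 50.5, 56.8 and 53.6 CPM in JMJD3 cKO TCM, against 42.2, 40.1 and 39.5 CPM in JMJD3 WT TCM. It too was higher in all 3 libraries (0.41, SE 0.05, adjusted p = 4.90e-08). Hspa9, which works upstream of this chamber, was at 283, 305 and 285 CPM in JMJD3 cKO TCM, against 278, 276 and 293 CPM in JMJD3 WT TCM, and was not called (0.06, 95% interval -0.01 to 0.12, adjusted p = 0.179).

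Hsp90ab1 was at 729, 723 and 733 CPM in JMJD3 cKO TCM, against 618, 614 and 612 CPM in JMJD3 WT TCM, a wide gap beside the spread of either group (0.25, SE 0.02, adjusted p = 2.46e-11). Hsp90aa1 was at 234, 223 and 224 CPM in JMJD3 cKO TCM, against 202, 199.8 and 201 CPM in JMJD3 WT TCM (0.19, SE 0.03, adjusted p = 5.89e-06). Trap1 was at 56.8, 57.8 and 57.1 CPM in JMJD3 cKO TCM, against 51.5, 48.2 and 49.1 CPM in JMJD3 WT TCM (0.22, SE 0.05, adjusted p = 0.000506). These 3 paralogs rose with no overlap. Hsp90b1 was at 377, 357 and 357 CPM in JMJD3 cKO TCM, against 362, 347 and 349 CPM in JMJD3 WT TCM, where the groups overlapped and it was not called (0.05, 95% interval -0.00372 to 0.11, adjusted p = 0.146).

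Of the proteases, Yme1l1 was the 1 that was called. It was at 107, 114 and 109 CPM in JMJD3 cKO TCM, against 126, 115 and 124 CPM in JMJD3 WT TCM, with no overlap but close neighbours (-0.14, SE 0.04, adjusted p = 0.00580). Lonp1 averaged 66.6 ± 0.997 CPM in JMJD3 cKO TCM and 65.2 ± 3.83 CPM in JMJD3 WT TCM (0.04, 95% interval -0.05 to 0.14, adjusted p = 0.527). Clpp averaged 13.9 ± 0.645 CPM in JMJD3 cKO TCM and 14.1 ± 0.334 CPM in JMJD3 WT TCM (-0.01, 95% interval -0.20 to 0.18, adjusted p = 0.944), and both genes overlapped between the groups.

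Neutrophil and precursor markers summed to 38.6 to 40.6 CPM in JMJD3 cKO TCM, against 21.1 to 25.0 CPM in JMJD3 WT TCM, where Ly6g had 0 counts, and 6 of 8 averaged higher. Of 10 proliferation markers 9 averaged higher, among them Mki67 at 36.0 CPM in JMJD3 cKO TCM and 19.6 CPM in JMJD3 WT TCM, and Rrm2 at 9.52 CPM in JMJD3 cKO TCM and 3.20 CPM in JMJD3 WT TCM. Their sum overlapped, at 628 to 640 CPM in JMJD3 cKO TCM, against 631 to 698 CPM in JMJD3 WT TCM, since Pcna, the most abundant of them, averaged lower (424 CPM in JMJD3 cKO TCM and 533 CPM in JMJD3 WT TCM). The macrophage sum was lower in JMJD3 cKO TCM, as given above, with 3 of 7 markers higher and 4 lower. Lyz2, the most abundant of them, averaged 4557 CPM in JMJD3 cKO TCM and 7412 CPM in JMJD3 WT TCM. Dendritic cell markers summed to 2.92 to 4.57 CPM in JMJD3 cKO TCM, against 6.98 to 9.63 CPM in JMJD3 WT TCM. Of these 4 markers 3 averaged higher and 1, Xcr1, lower (3.19 CPM in JMJD3 cKO TCM and 7.86 CPM in JMJD3 WT TCM). The part of these markers in the rises of the chaperonin pair and the paralogs, and in those of the TRiC and import genes described after them, was not tested.

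**Figure D5:**
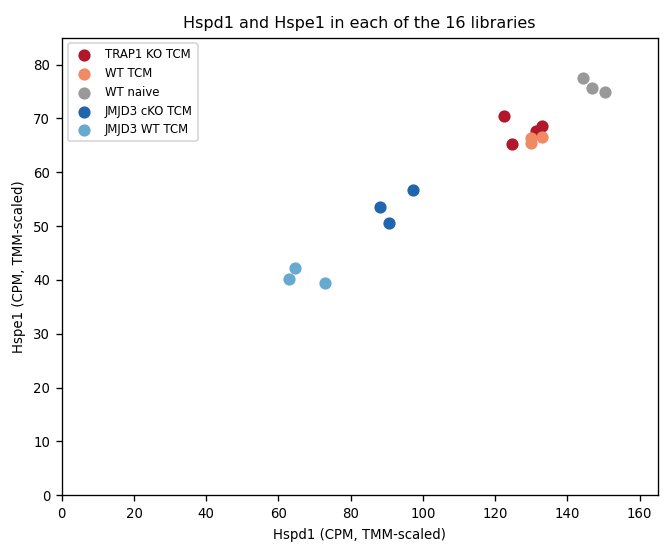
Hspd1 (horizontal axis, CPM) and Hspe1 (vertical axis, CPM) in each of the 16 libraries, with both axes from 0. The points lie along 1 band, with JMJD3 WT TCM at its lower end (means of 66.8 CPM for Hspd1 and 40.6 CPM for Hspe1) and WT naive at its upper end (147 and 76.0 CPM).

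The 2 genes of the chaperonin differed less in proportion than in level. Per kb of exon, the ratio of Hspd1 to Hspe1 was 1.05 ± 0.0552 in TRAP1 KO TCM, 1.11 ± 0.0112 in WT TCM, 1.08 ± 0.0418 in WT naive, 0.958 ± 0.0421 in JMJD3 cKO TCM and 0.920 ± 0.0958 in JMJD3 WT TCM. Over the same groups the mean level of Hspd1 differed by up to 2.20 times and that of Hspe1 by up to 1.87 times. The value of the ratio depends on the length used. With the longest transcript as length, Hspd1 was at 54.1 and Hspe1 at 68.6 CPM per kb in WT TCM. Hspd1-ps3, a processed pseudogene whose symbol names it as a copy of Hspd1, held 1416 counts over all libraries, or 3.996% of those of Hspd1, and how reads shared with it were assigned is not known.

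All 8 TRiC subunits rose in JMJD3 cKO TCM, where 17.3% of all genes tested rose and 17.8% fell, with a median log2 fold change of 0.26, beside 0.01 over all genes tested. Cct3 averaged 93.4 ± 3.74 CPM in JMJD3 cKO TCM and 70.9 ± 3.60 CPM in JMJD3 WT TCM (0.41, adjusted p = 3.25e-10), and Cct4 129 ± 3.74 CPM in JMJD3 cKO TCM and 108 ± 5.23 CPM in JMJD3 WT TCM (0.27). Cct2 averaged 126 ± 4.58 CPM in JMJD3 cKO TCM and 107 ± 2.45 CPM in JMJD3 WT TCM (0.25). Of 20 import genes 8 rose and 0 fell, among them Tomm20, a receptor of the outer membrane, at 77.2 ± 3.51 CPM in JMJD3 cKO TCM and 66.1 ± 3.66 CPM in JMJD3 WT TCM (0.23), Timm17b (0.46) and Gfer (0.31), an oxidase of the import relay. Of 13 further mitochondrial chaperones 4 rose and 0 fell, with Phb at 0.21 and Phb2 at 0.16. Of 14 proteases and peptidases tested 5 rose and 0 fell, with Parl at 31.5 ± 0.913 CPM in JMJD3 cKO TCM and 24.6 ± 0.947 CPM in JMJD3 WT TCM (0.37, adjusted p = 1.62e-05). This last count was 3 without JMJD3 WT TCM replicate 1 or JMJD3 cKO TCM replicate 3.

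Stress signalling genes went the other way, with 0 of 13 higher and 5 lower (median -0.13), where 17.3% of all genes tested were higher and 17.8% lower. Ddit3 averaged 108 ± 5.64 CPM in JMJD3 cKO TCM and 176 ± 10.99 CPM in JMJD3 WT TCM (-0.69, adjusted p = 5.49e-16). Atf4 averaged 279 ± 5.63 CPM in JMJD3 cKO TCM and 331 ± 6.34 CPM in JMJD3 WT TCM (-0.24, adjusted p = 5.49e-09), and the pseudokinase Trib3 43.1 ± 2.23 CPM in JMJD3 cKO TCM and 65.2 ± 7.73 CPM in JMJD3 WT TCM (-0.58, adjusted p = 2.26e-07). Of 15 cochaperones 4 rose and 1, Ahsa1 (-0.22), fell, or 2 fell without JMJD3 cKO TCM replicate 3, and Ppid rose (0.49). Of 17 ER genes 6 rose and 3 fell, with Hyou1 at 0.20 and Dnajb11 at -0.18, and 3 rose without JMJD3 cKO TCM replicate 2. Of 11 cytosolic heat shock proteins 2 rose and 2 fell, with Hspa4 at 0.17 and the inducible HSP70 Hspa1a, a gene of few counts, at -0.64.

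The difference between the knockout effects was tested in 1 fit of all 16 libraries, as the TRAP1 KO effect minus the JMJD3 cKO effect. It was higher for 2 of the 10 genes and lower for 7, where 18.4% of the 14540 genes tested were higher and 19.5% lower (37.9% called in either direction). The 7 include Trap1, the targeted gene of the TRAP1 KO cells. Hspd1 differed by -0.50 (SE 0.05, adjusted p = 2.34e-13) and Hspe1 by -0.37 (SE 0.06, adjusted p = 5.93e-07). Hsp90ab1 (-0.33), Hsp90b1 (-0.32) and Hsp90aa1 (-0.23) differed in the same direction, as did Lonp1 (-0.23). Yme1l1 differed the other way (0.33, SE 0.05, adjusted p = 8.06e-09), being higher in TRAP1 KO TCM and lower in JMJD3 cKO TCM against its own wild type. Clpp was at the edge of the test (0.31, SE 0.12, adjusted p = 0.0335), and Hspa9 was not called (0.08, 95% interval 0.00298 to 0.15, adjusted p = 0.0955). The Clpp call was lost, at adjusted p of 0.0537 to 0.133, without WT TCM replicate 1 or 2, TRAP1 KO TCM replicate 1 or 2, JMJD3 WT TCM replicate 1 or 2, or JMJD3 cKO TCM replicate 1 or 3, taken out one at a time, and also with no filter on low counts (0.0514) or with DESeq2 (0.0537). Hspa9 was called without JMJD3 cKO TCM replicate 2 (0.10, adjusted p = 0.0225) and with a minimum of 50 counts (adjusted p = 0.0274).

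The wild-type cells of both sets were compared because the knockouts were read within their own sets. In JMJD3 WT TCM 2 of the 10 genes were higher than in WT TCM and 7 lower, where 30% of the 14540 genes tested were higher and 31.3% lower (61.3% called in either direction). Hspd1 averaged 66.8 ± 5.29 CPM in JMJD3 WT TCM, against 131 ± 1.64 CPM in WT TCM (log2 fold change -0.97, SE 0.04, adjusted p = 3.94e-37). Hsp90ab1 averaged 615 ± 3.28 CPM in JMJD3 WT TCM, against 1074 ± 12.6 CPM in WT TCM (-0.80, SE 0.02, adjusted p = 3.99e-58), and Hspe1 40.6 ± 1.44 CPM in JMJD3 WT TCM, against 66.1 ± 0.645 CPM in WT TCM (-0.70, SE 0.05, adjusted p = 1.50e-24). Trap1 (-0.44), Hsp90b1 (-0.43) and Hsp90aa1 (-0.28) were lower too, while Yme1l1 (0.27) and Hspa9 (0.10) were higher. Clpp was lower (-0.23, adjusted p = 0.0213), which DESeq2 did not call (adjusted p = 0.0511) and which missed the threshold if JMJD3 WT TCM replicate 3 (adjusted p = 0.0599) or WT TCM replicate 3 (adjusted p = 0.106) was left out. Lonp1 was not called (-0.06, adjusted p = 0.219), except without JMJD3 WT TCM replicate 2 (-0.11, adjusted p = 0.0389). These gaps between the wild types were larger than those between either knockout and its own wild type for Hspd1, Hspe1, Hsp90ab1, Hsp90b1, Hsp90aa1 and Yme1l1. The line and any difference in handling between the sets cannot be told apart.

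To describe which of the genes varied alike, log2 CPM was centred on its mean within each set and correlated over the 16 libraries. Libraries of 1 group share their genotype and medium, so these values describe mostly differences between groups. Trap1 went with Hsp90b1 (r = 0.94), Hsp90ab1 with Hspd1 (r = 0.91) and Hspe1 (r = 0.88), and Hspd1 with Hspe1 (r = 0.89). Yme1l1 ran against Hsp90b1 (r = -0.89), Trap1 (r = -0.84), Lonp1 (r = -0.83) and Hsp90aa1 (r = -0.79). Hspa9 and Lonp1, which both act in the matrix, ran against each other (r = -0.74). Within the 10 libraries of the TRAP1 set Hspd1 and Hspe1 had r = 0.79, and within the 6 of the JMJD3 set r = 0.92. In the same order, Trap1 and Hsp90b1 had 0.95 and 0.65, and Hspa9 and Lonp1 -0.83 and -0.41. Hsp90ab1 had 0.83 and 0.93 with Hspd1, and 0.63 and 0.96 with Hspe1. Yme1l1 had -0.99 and -0.45 with Hsp90b1, and -0.95 and -0.66 with Trap1. It had -0.86 and -0.71 with Lonp1, and -0.80 and -0.82 with Hsp90aa1. The values of Trap1 over the TRAP1 set rest largely on its loss in TRAP1 KO TCM.

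Among the 9362 genes that averaged 5 CPM or more, the 3 most like Trap1 were Rpl29 (r = 0.998), Hjurp (r = 0.996) and Fth1 (r = 0.994), values that rest on the gap between TRAP1 KO TCM and the other libraries. For Hsp90b1 they were Ctss (r = 0.981), Csf2ra (r = 0.979) and Tle1 (r = 0.979), and for Hsp90ab1 Ddx27 (r = 0.966), Parp1 (r = 0.957) and Rpl4 (r = 0.956). Eif4g1 was among the 3 for both chaperonin genes, at r = 0.937 with Hspd1 and r = 0.957 with Hspe1, where Ddx21 led (r = 0.972). The best matches of Hsp90aa1, Yme1l1 and Clpp were Mmp12 (r = 0.940), Il10ra (r = 0.962) and Tgoln1 (r = 0.909), and those of Hspa9 and Lonp1 were the weakest, Pigt (r = 0.885) and Arl6ip4 (r = 0.885).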

How the data were processed

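For each library, the authors deposited a whole-number count per gene identifier, used here as raw counts. Per the labels' protocols, rRNA was depleted and TruSeq Stranded libraries were sequenced on an Illumina HiSeq. Per the submitters' processing notes, HISAT, StringTie, Bowtie2, RSEM and mm10 were used, with no version or role; the counting tool, annotation and strand setting were not given in the sources used here. GENCODE M21 named 54495 of 54532 identifiers, and the 37 others held up to 0.0036% of the counts of any library.

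The test was that of edgeR 4.0.16 in R 4.3.3 (TMM, filterByExpr at a minimum count of 10, robust quasi-likelihood fit), with Benjamini-Hochberg adjustment over all genes tested and calls at an adjusted p under 0.05. All 10 genes passed the filter. The TRAP1 set was 1 fit of 10 libraries (7 residual degrees of freedom), the JMJD3 set 1 fit of 6 (4), and the difference and the comparison of wild types 1 fit of 16 (11). CPM values use TMM over all 16 libraries and are mean ± SD; levels between genes are per kb of the union of annotated exons. Likeness used log2 CPM with a prior count of 2. No pair of replicates agreed within sampling noise. The genes and the 8 lists were chosen with earlier results of these data known. Named list genes were up to 3 called genes per list with the smallest adjusted p. Alternatives were relative log expression scaling in edgeR in place of TMM, the test of DESeq2 1.42.0, other filters, other fits and leaving out each library.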

Additional observations from a re-analysis of the deposited data

Results flagged for a closer look

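Among the 10 genes in the group of 4 libraries, 1 value stood apart from its group: the lowest Trap1 library of TRAP1 KO TCM, at 0 CPM, while the other 3 had 1 count each. For continuous values with a normal spread, chance gives about 1 such value in 20 groups. That rate does not hold for counts of 1, 1, 1 and 0, so the flag shows no more than the counts themselves.

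The effect of TRAP1 KO minus that of JMJD3 cKO, each against its own wild type with TCM, passed the test of the difference itself for 9 of the 10 genes. On the log2 scale it was -10.77 for Trap1, the targeted gene of one of the lines, -0.23 for Hsp90aa1, -0.33 for Hsp90ab1, -0.32 for Hsp90b1, -0.50 for Hspd1, -0.37 for Hspe1 and -0.23 for Lonp1. It was 0.31 for Clpp and 0.33 for Yme1l1. The background was high, with 37.9% of all genes tested called.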

How the results depend on the processing

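No call of a gene changed direction under any alternative run, and of 800 alternative fold changes of the 10 genes 778 stayed on their side of the threshold, 18 lost a call and 4 gained one. Of 240 counts of calls, 14 moved by over 1.5 times. For WT TCM against WT naive, the count of genes that rose was 0 with no filter on low counts and 0 to 1 when single libraries were left out. For the difference between the knockout effects, the count that was higher was 1 with no filter and 1 with DESeq2, and 1 to 3 when single libraries were left out. With the longest transcript as length, the levels in WT TCM were 29.2 CPM per kb for Trap1, 74.4 for Hsp90aa1, 426 for Hsp90ab1, 148 for Hsp90b1, 54.1 for Hspd1, 68.6 for Hspe1, 86.4 for Hspa9, 16.9 for Clpp and 21.4 for Yme1l1. This placed Hspa9 above Hsp90aa1, Hspe1 above Hspd1 and Yme1l1 above Clpp. Lonp1 moved by less than its SD (15.6 ± 0.310 CPM per kb of annotated exon), so Yme1l1 and Clpp both stood above it. With raw library totals the levels in WT TCM were 367.7 CPM per kb for Hsp90ab1, 121 for Hsp90b1, 50.9 for Hspd1, 46.0 for Hspe1, 62.7 for Hspa9, 16.005 for Lonp1 and 12.9 for Yme1l1. The cause of each change was not tested, apart from the changed length or total itself.

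Libraries with the same replicate number did not deviate together (correlations of -0.0851 to 0.0247), so no pairing by number was seen. With so few libraries per group, this cannot show whether libraries of the same number share a source. With the number as a block, 5576 genes were called in TRAP1 KO TCM against WT TCM, 5927 in WT TCM against WT naive and 4575 in JMJD3 cKO TCM against JMJD3 WT TCM, and the replicate block left the counts of the 10 genes in every comparison as they were. Depth limits Clpp most, and Trap1 in TRAP1 KO TCM.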
